A study of Arabidopsis thaliana with 22 samples.

Results

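Short Vegetative Phase (SVP, locus AT2G22540, chromosome 2) and Agamous-like 24 (AGL24, locus AT4G24540, chromosome 4) are 2 of the 27432 protein-coding genes placed on the nuclear chromosomes of Arabidopsis thaliana. They were chosen by name, with earlier results of these data known, as closely related MADS-box genes with opposite effects on flowering time. For each gene the islands over the gene body and 2 kb on either side were read in 16 libraries. An island is a stretch of the genome that the authors' caller found enriched over a control. Both genes had islands of both histone marks and passed the filter for testing in both marks.

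MADS-box genes encode transcription factors that bind CArG-box DNA and act in dimers or larger complexes. SVP represses flowering: with FLC and FLM it holds down FT in leaves and SOC1 in the shoot apex. AGL24 promotes flowering together with SOC1, and the genes AGL24 and SOC1 activate each other. Later, in the young floral meristem, SVP and AGL24 act redundantly with AP1, and AP1 then represses both so that floral organs can form. H3K4me3 is the trimethylation of histone H3 found near the start of transcribed genes, and H3K27me3 is the trimethylation set by Polycomb complexes over repressed genes.

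Chromatin immunoprecipitation with sequencing measured both marks at 4 stages with 2 biological replicates each, and every plant was in the Landsberg erecta background. The leaf group was rosette leaves of flowering wild-type plants. The apex t0 group was the cauliflower-like main inflorescence of untreated ap1-1 cal-1 plants that carried 35S::AP1:GR, and apex t2 was the same tissue and genotype 2 days after 10 µM dexamethasone. The inflorescence group was the main inflorescence of wild-type plants without flowers older than stage 12. The 35S promoter drives the AP1-glucocorticoid receptor fusion in most cells, and dexamethasone moves the fusion into the nucleus. Both apex groups thus lack functional AP1 and CAL of their own, and the groups hold no mock-treated apex. Genotype and tissue cannot be told apart when an apex is compared with leaf or inflorescence. Nor can the amount of chromatin per reaction, 15 µg for apices and 10 µg for wild-type tissue, or the control. Leaf and inflorescence shared a control, as did t0 and t2, within each replicate and mark.

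Libraries held 6635471 to 23673881 reads in H3K4me3 islands and 3779918 to 19379225 in H3K27me3 islands, and replicate 2 was the deeper one at each stage and in each mark. Leaf H3K27me3 replicate 1 stood apart from replicate 2 over AGL24 and had the fewest islands of its mark, 6345 against 8020. As a check of the labels, H3K4me3 lay on 0 of 3 meristem markers (STM, KNAT1 and ANT) in both leaf libraries, and on 3 of 3 in both libraries of each other stage. Of 4 flower organ markers (AP3, PI, AG and SEP3), 0 were marked in both libraries of leaf and of apex t0, 2 at apex t2 and 3 in the inflorescence. Of the leaf markers RBCS1A, RBCS1B and CA1, 3 of 3 were marked in leaf and in the inflorescence, and 2 of 3 at t0 and t2. By this count leaf and inflorescence did not differ. Their H3K4me3 summed to 491 and 279 RPM in leaf and 116 and 105 at t0. It summed to 105 and 101.4 at t2, and to 304 and 236 in the inflorescence. RPM is the number of island reads that fall on a gene body, per 1000000 such reads on all tested genes. Density is given as reads per kb of island per 1000000 island reads of the library. In whole tissues, fewer cells with a mark and less of the mark per cell cannot be told apart. The differing mix of cell types goes with every stage difference below, and its part in them was not tested.

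SVP carried a domain of H3K4me3 near the lower-coordinate end of the gene in 8 of 8 libraries, broadest in leaf and narrowest in the inflorescence. The strand of the genes is not in the gene table used here, so ends are named by coordinate (TAIR10). In leaf the island ran from 9580001 to 9581800 in replicate 1 and from 9579801 to 9581800 in replicate 2. In apex t0 it ran from 9580201 to 9581400 and from 9580001 to 9581600, and in apex t2 from 9580201 to 9581400 and from 9580001 to 9581400. In the inflorescence it was left with 9580201 to 9580600 and 9580201 to 9580800. The island was thus 1800 and 2000 bp long in leaf, 1200 and 1600 bp at t0, 1200 and 1400 bp at t2, and 400 and 600 bp in the inflorescence. The deeper replicate 2 had the longer island at each stage. Most of the difference lay at the edge inside the gene, because the outer edge moved by at most 400 bp between any of the 8 libraries.

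These islands held 644 and 2340 reads in leaf, 445 and 1454 at t0, 571 and 1053 at t2, and 118 and 415 in the inflorescence, as deposited. Per kb of gene body the H3K4me3 level of SVP was 24.4 and 26.1 RPM in leaf, 10.2 and 16.6 at t0, 9.41 and 12.8 at t2, and 3.52 and 6.03 in the inflorescence. The mean ± SD of the 2 replicates was 25.3 ± 1.22, 13.4 ± 4.58, 11.1 ± 2.38 and 4.78 ± 1.77. Both leaf libraries lay above, and both inflorescence libraries below, the other libraries of the mark, while the replicates of t0 and t2 overlapped. For this and later separations of libraries, the share of all tested genes that separate alike is not given here. The density within the island was 53.9 and 49.4 in leaf, 34.6 and 41.2 at t0, 32.2 and 37.0 at t2, and 34.9 and 40.1 in the inflorescence. Leaf was therefore the densest, and the inflorescence islands were as dense as those of the apices although they were shorter.

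From leaf to inflorescence, H3K4me3 on SVP fell by 2.39 ± 0.33 (standard error) on the log2(RPM + 1) scale, with 2 libraries per stage and adjusted p = 0.017 by limma, a linear model fitted to all 17577 genes tested for the mark. In that comparison 4.06% of the tested genes passed the threshold of 0.05. The call ended without leaf replicate 1 (adjusted p = 0.102), without either apex t2 replicate (0.0778 and 0.0637) or without inflorescence replicate 1 (0.0561), while the difference without these libraries stayed between -2.42 and -2.02. The step from leaf to apex t0 was -0.94 ± 0.33 and did not pass (limma adjusted p = 0.158), in a comparison where 8.05% of the genes were called. With the replicate number as a block it passed (limma adjusted p = 0.0286), and the calls over all genes went from 1415 to 2391. The step from apex t2 to inflorescence was -1.21 ± 0.33 (limma adjusted p = 0.311), where 1.16% of genes were called, 204 in all and 125 with the block.

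**Figure D1:**
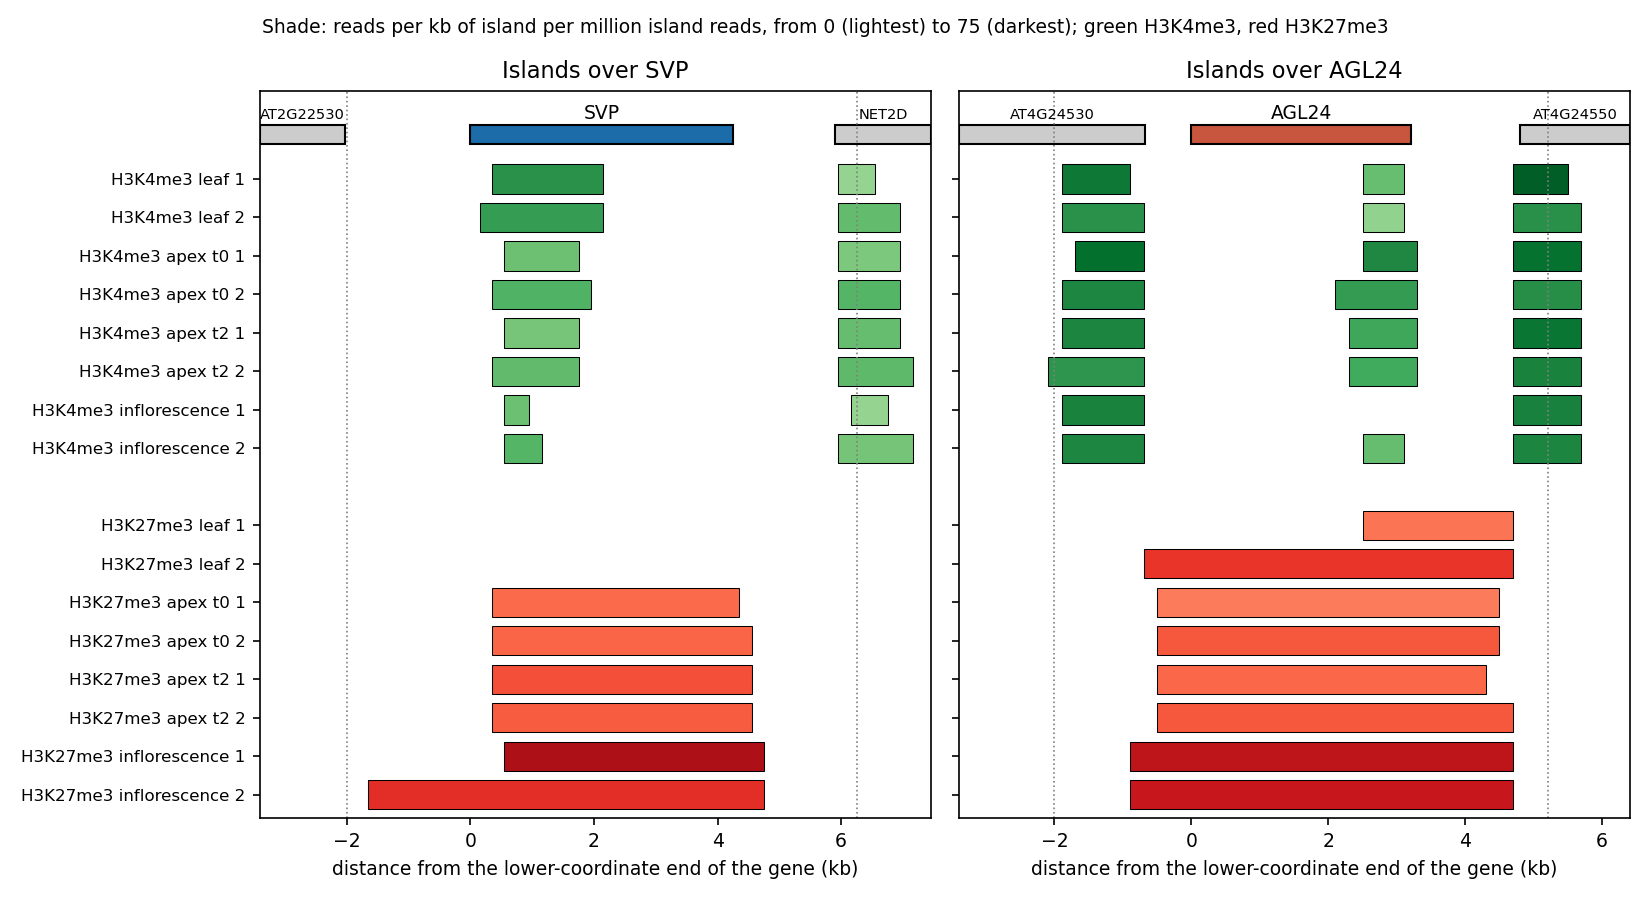
Islands over SVP (left) and AGL24 (right) and 2 kb either side (dotted lines), one line per library, with distance from the lower-coordinate end of the gene in kb and gene bodies on top. Green bars are H3K4me3 islands and red bars H3K27me3 islands, darker where the read density is higher. On SVP the H3K4me3 island shortens from 2000 bp in leaf replicate 2 to 400 bp in inflorescence replicate 1, and H3K27me3 islands are present in 6 libraries and missing in both leaf libraries.

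H3K27me3 on SVP had the opposite order of stages. No island overlapped the gene body or its flanks in either leaf library, and the nearest H3K27me3 islands there ended 6.85 kb below and began 7.90 kb above the gene in both. A missing island is a level under the authors' island threshold and not a measured zero. The least dense H3K27me3 island of those leaf libraries had a density of 14.5 and 13.6, from 72.5 and 253 reads per kb. In the apices a single island covered 91.7% of the SVP body in each of the 4 libraries, from 9580001 to 9584000 in t0 replicate 1 and to 9584200 in the other apex libraries. In the inflorescence it ran from 9580201 to 9584400 in replicate 1, and in replicate 2 from 9578001 to 9584400. Replicate 2 of the inflorescence was the one library in which the domain extended below the gene, by 1646 bp.

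The SVP islands held 1309 and 2332 H3K27me3 reads at t0, 1799 and 2110 at t2, and 1037 and 6067 in the inflorescence, which reflects the depth of the libraries as well. On the depth-scaled level, SVP had 54.4 and 61.0 RPM per kb of body at t0, 66.5 and 66.3 at t2, and 95.1 and 100.4 in the inflorescence. The 3 stages with islands did not overlap, a separation given without its share over all genes. The SD of the replicates was 4.68 at t0, 0.11 at t2 and 3.74 in the inflorescence. Among all islands of the same library, those on SVP were near the middle in the apices, at the 36.9th to 56.7th percentile of read density. In the inflorescence they were at the 75.4th and the 87.0th.

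In the fit over 8621 genes tested for H3K27me3, SVP passed the threshold against leaf both in apex t0 (limma adjusted p = 5.82e-05, where 9.57% of genes were called) and in the inflorescence (limma adjusted p = 3.55e-05, where 5.15% were called). It had the smallest p of all tested genes in both comparisons, a rank that rests in part on leaf values set to 0. SVP had no leaf island and passed the gene filter only through the other stages. These p-values set the missing leaf islands to 0 RPM in both libraries, so leaf adds no spread, and no fold change is given. Leaving out a library cannot add spread to leaf either. With any 1 of the 8 libraries left out, the adjusted p for SVP stayed at or under 0.00849 and 0.00338. From t2 to inflorescence SVP was higher by 0.56 ± 0.13 on the log2 scale (limma adjusted p = 0.163, with 3.29% of genes called), past the threshold without leaf replicate 1 or 2 (limma adjusted p = 0.0452 and 0.0458). Leaving out a library with no SVP island changes the estimate of the spread and not the compared values.

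**Figure D2:**
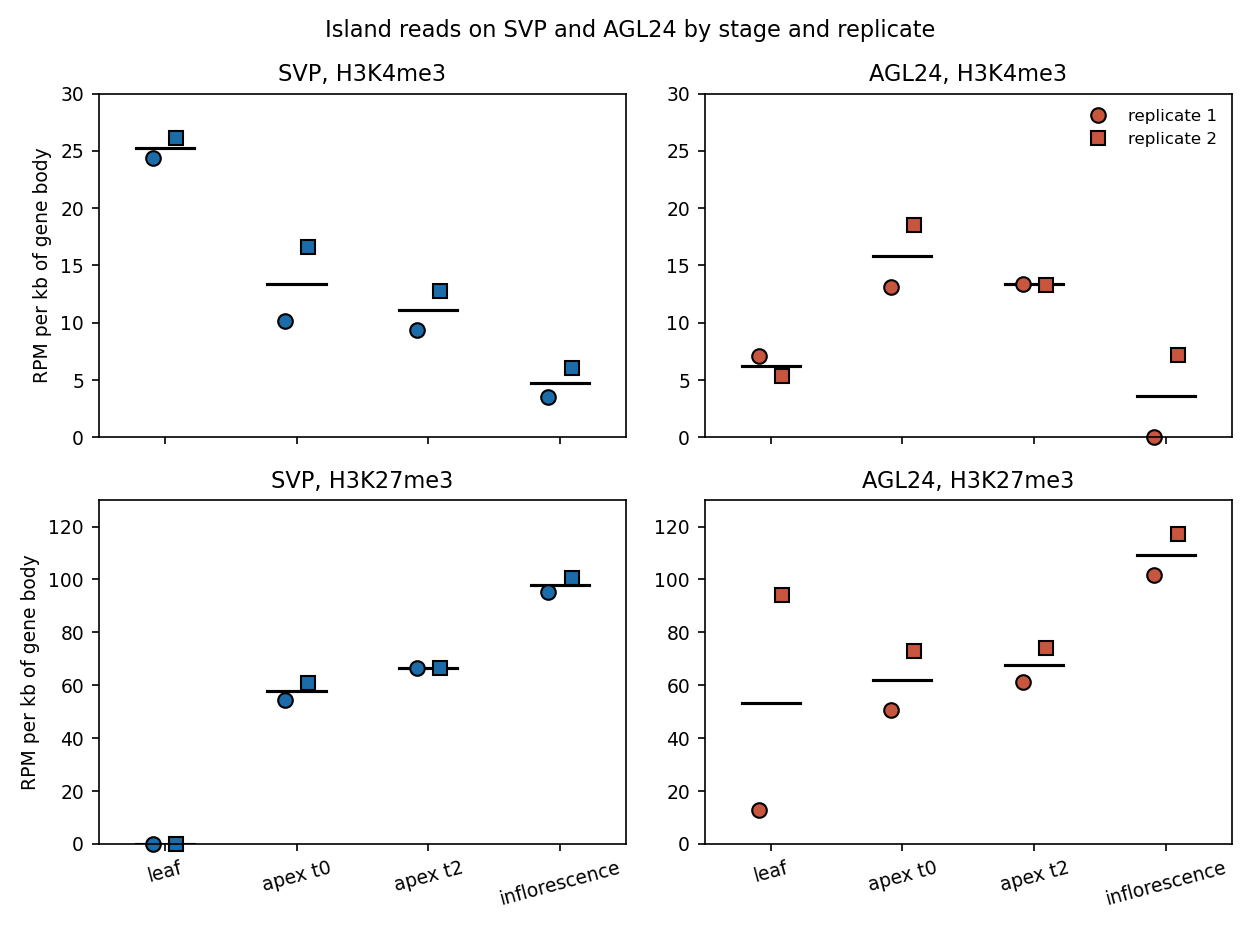
RPM per kb of gene body on SVP (left, blue) and AGL24 (right, red) for H3K4me3 (top) and H3K27me3 (bottom) at each stage, circles for replicate 1, squares for replicate 2 and a line at their mean. H3K4me3 on SVP goes from 24.4 and 26.1 in leaf to 3.52 and 6.03 in the inflorescence. On AGL24 it is highest in the apices, and its leaf H3K27me3 replicates lie at 12.8 and 94.1.

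AGL24 carried its H3K4me3 near the higher-coordinate end, in a short island that was longest and densest in the apices. The island ran from 12673401 to 12674000 in both leaf libraries and in inflorescence replicate 2. At t0 it ran from 12673401 to 12674200 in replicate 1 and from 12673001 to 12674200 in replicate 2, and at t2 from 12673201 to 12674200 in both. Inflorescence replicate 1 had no H3K4me3 island on the AGL24 body, although islands on both neighbouring genes were present in that library. The reads in the island were 141 and 360 in leaf, 492 and 1323 at t0, 678 and 911 at t2, and 371 in inflorescence replicate 2.

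Per kb of gene body, H3K4me3 on AGL24 was 7.08 and 5.33 RPM in leaf, 13.2 and 18.5 at t0, 13.4 and 13.3 at t2, and 0 and 7.15 in the inflorescence. The 4 apex libraries lay above the 4 wild-type libraries without overlap, and the share of all tested genes that separate alike is not given here. The authors' fold over control of this island was 3.52 and 2.02 in leaf, 4.86 and 4.51 at t0, 4.21 and 2.96 at t2, and 1.83 in inflorescence replicate 2, where 10.97% of the islands of that library had a lower fold. Apex t0 was higher than leaf by 1.30 ± 1.38 on the log2 scale (limma adjusted p = 0.622). The large standard error pools all stages and holds the spread between the inflorescence replicates, at 0 and 7.15 RPM per kb. Without inflorescence replicate 1 the difference was 1.30 ± 0.26, and without inflorescence replicate 2 it was 1.30 ± 0.41. Neither passed the threshold.

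Between inflorescence and apex t2 the adjusted p for AGL24 was 0.779, and between inflorescence and leaf 0.549, both by limma. With islands of fold 2 or more, which drops the island of inflorescence replicate 2, AGL24 passed in both (limma adjusted p = 0.0214 and 0.0161). Both inflorescence libraries are then set to 0 RPM and add no spread to these p-values. Against leaf it also passed without inflorescence replicate 2 (limma adjusted p = 0.0451), which leaves only the library set to 0. Without inflorescence replicate 1 the difference from leaf changed sign to 0.21 ± 0.32 (limma adjusted p = 0.833). The sign of the difference between inflorescence and leaf thus depended on which inflorescence replicate was read.

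H3K27me3 covered AGL24 from end to end in 7 of 8 libraries, the exception being leaf replicate 1. In the apices the island ran from 12670401 to between 12675200 and 12675600, so it passed the lower end of the gene by 496 bp. In both inflorescence libraries it ran from 12670001 to 12675600, which was 5600 bp and the longest on either gene after the island of SVP in inflorescence replicate 2. Leaf replicate 2 had an island from 12670201 to 12675600 with 4729 ChIP reads. Leaf replicate 1 had one from 12673401 to 12675600 with 326 ChIP reads, which covered 706 bp of the 3210 bp body.

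The H3K27me3 level on AGL24 was 50.8 and 73.0 RPM per kb at t0, 61.2 and 74.2 at t2, and 101.5 and 117.1 in the inflorescence. The inflorescence libraries lay above those of the apices, a separation given without its share over all genes, and t0 and t2 overlapped. Leaf had 12.8 RPM per kb in replicate 1 and 94.1 in replicate 2, one below and the other above the 4 apex libraries. No comparison passed for AGL24 in this mark: the difference was 0.80 ± 0.90 on the log2 scale for t0 against leaf (limma adjusted p = 0.631), 1.64 ± 0.90 for inflorescence against leaf (0.564) and 0.69 ± 0.90 for inflorescence against t2 (0.884). The standard error was smaller when 1 leaf replicate, whichever it was, was left out, and the direction of t0 against leaf depended on which one was kept. Without leaf replicate 1, AGL24 was lower at t0 than in leaf by -0.64 ± 0.26 (limma adjusted p = 0.296). Without leaf replicate 2 it was higher by 2.20 ± 0.26 (limma adjusted p = 0.0104). Inflorescence against leaf was 0.20 ± 0.26 without leaf replicate 1 (limma adjusted p = 0.750) and 3.05 ± 0.26 without leaf replicate 2 (limma adjusted p = 0.00688). Inflorescence against t2 was 0.69 ± 0.21 without leaf replicate 1 (limma adjusted p = 0.416).

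The 2 days after AP1 induction left both genes within the spread of their replicates or close to it. For H3K4me3, apex t2 against apex t0 was -0.24 ± 0.33 on SVP and -0.22 ± 1.38 on AGL24, and both values changed sign without t0 replicate 2 (0.11 ± 0.36 and 0.02 ± 1.88). For H3K27me3 it was 0.20 ± 0.13 on SVP, with both t2 libraries above both t0 libraries, a separation given without its share over all genes. On AGL24 the H3K27me3 difference was 0.14 ± 0.90, and -0.12 without t0 replicate 1. Limma gave an adjusted p of 1 for each of these. It called 0% of genes in this comparison in either mark, also with the replicate block, with an unadjusted p under 0.05 for 156 H3K4me3 and 36 H3K27me3 genes. AP1 is known to bind and repress both genes, and differences the size of these standard errors were not detectable with 2 libraries per stage.

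Side by side in one library, the ratio of the genes does not depend on the scaling between libraries. In H3K4me3 the level per kb on SVP was 3.45 and 4.90 times that on AGL24 in leaf. At t0 it was 0.77 and 0.90 times, at t2 0.70 and 0.96 times, and 0.84 times in inflorescence replicate 2. SVP thus carried more of the mark per kb of body than AGL24 in leaf, and less in each apex library. The body of SVP is the longer one, 4255 against 3210 bp, and RPM summed over the body without division by length was higher on SVP in 3 of the 4 apex libraries (43.3 against 42.2 and 70.8 against 59.4 at t0, 54.3 against 42.6 in t2 replicate 2). In H3K27me3 the ratio lay between 0.84 and 1.09 in the 6 libraries of apex and inflorescence, and in leaf AGL24 had islands and SVP had none. The order of stages, by mean level per kb, was leaf, t0, t2 and inflorescence from high to low for H3K4me3 on SVP, and t0, t2, leaf and inflorescence on AGL24. For H3K27me3 it was inflorescence, t2, t0 and leaf for both genes. Among neighbours in these orders the replicates overlapped between t0 and t2 in both genes for H3K4me3, between leaf and inflorescence for H3K4me3 on AGL24, and between t2, t0 and leaf for H3K27me3 on AGL24.

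**Figure D3:**
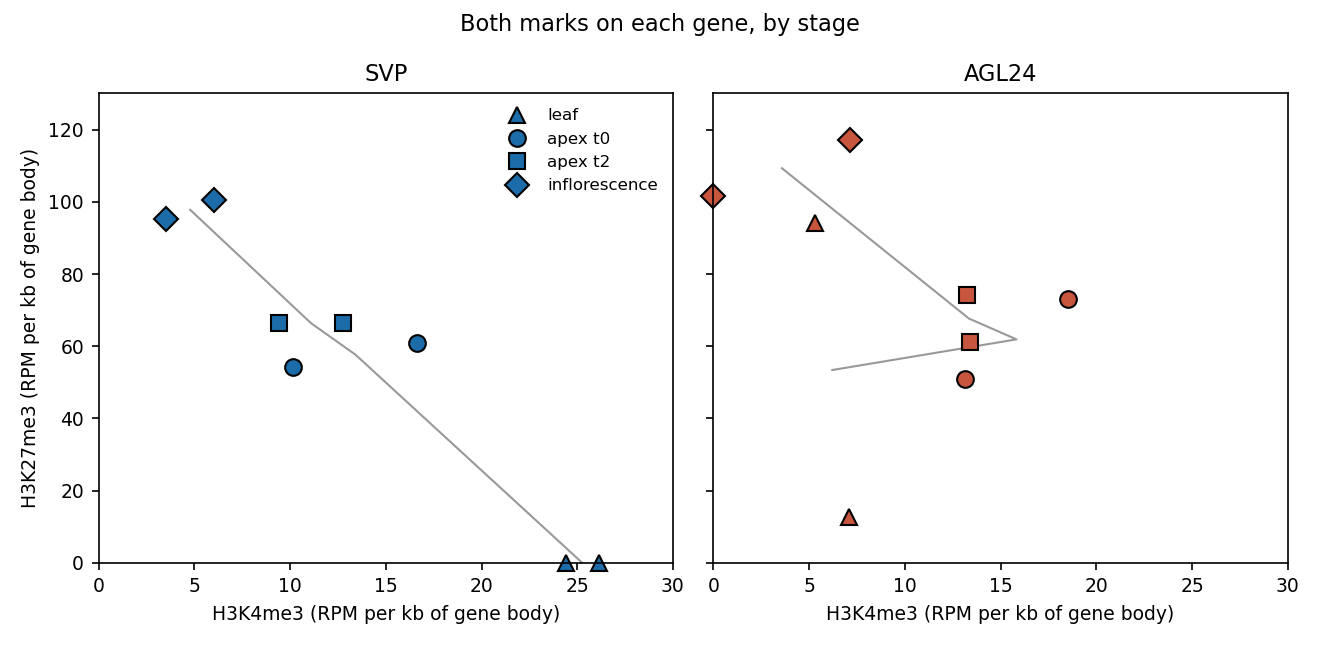
H3K27me3 against H3K4me3, both in RPM per kb of gene body, for SVP (left) and AGL24 (right), one symbol per replicate pair of libraries and a grey line through the stage means in the order leaf, t0, t2, inflorescence. SVP moves from high H3K4me3 with no H3K27me3 island in leaf to 3.52 and 6.03 RPM per kb of H3K4me3 with 95.1 and 100.4 of H3K27me3 in the inflorescence, whereas AGL24 turns at t0.

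Wherever a gene body carried islands of both marks at the same stage and replicate, the marks were called over shared bases. On SVP the whole H3K4me3 island lay inside the H3K27me3 island in all 6 libraries of apex and inflorescence, over 1200 and 1600 bp at t0, 1200 and 1400 bp at t2, and 400 and 600 bp in the inflorescence. In leaf the overlap was 0 bp because SVP had no H3K27me3 island. On AGL24 the part of the H3K4me3 island on the gene body lay inside the H3K27me3 island in all 7 libraries that had one, over 600 to 1106 bp, leaf included. The H3K27me3 island covered at least 3701 bp of SVP in those libraries and all of AGL24 except in leaf replicate 1, where it covered 706 bp. Where it covered the whole body, an H3K4me3 island on the body could not lie outside it. Whether the marks sat on the same nucleosomes or in different cells of the tissue was not tested.

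No stage difference passed the threshold in H3K4me3 on the genes next to SVP and AGL24. NET2D, a gene of the actin-binding NET family, begins 1647 bp above SVP and had an H3K4me3 island at that end in 8 of 8 libraries, with a density of 24.0 to 39.998. Its stage differences were between -0.69 ± 0.60 and 0.53 ± 0.60 on the log2 scale, with limma adjusted p from 0.649 to 1. Beside AGL24, the H3K4me3 islands of AT4G24530 (674 bp below) and AT4G24550 (1601 bp above) were present in 8 of 8 libraries. Their density was 52.3 to 66.9 and 54.3 to 72.3, and their gene values differed between stages by at most 0.07 on the log2 scale. Neither flank of SVP had an H3K27me3 island that was not part of the island on the gene.

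A list of 33 other genes of the flowering pathway gives the setting. The list was drawn up with earlier results of these data known. Its shares beside those of all genes are therefore descriptive and were not tested. For H3K4me3, 26 of them were tested. Against leaf, 5 rose and 1 fell in apex t0, 23.1% of those tested, against 8.05% of all genes tested (median log2 difference 0.52, against -0.01 over all genes). The 5 were AP1, CAL, AGL71, AGL72 and GA20OX2. In every call of this paragraph the lower stage was set to 0 RPM in both libraries, except for CAL, with 0 and 0.47 RPM in leaf. The lower stage thus adds little or no spread, and these genes passed the gene filter only through other stages. AP1 and CAL are both mutant in these apices, and AP1 is also present as a transgene. AGL71 and AGL72 are SOC1-like MADS genes at neighbouring loci, so they do not count as 2 independent genes. GA20OX2 is a gibberellin biosynthesis gene that SVP is known to repress. GA20OX2 had no H3K4me3 island in leaf or in the inflorescence, whereas it had 36.2 and 48.6 RPM in the t0 libraries and 46.8 and 53.7 in those of t2. The gene that fell was SNZ, an AP2-like repressor of flowering, with 73.7 and 66.6 RPM in leaf and no island at the other stages. With the replicate block TEM2 fell as well (limma adjusted p = 0.0398, against 0.0603 without it). AGL71 and GA20OX2 fell from t2 to inflorescence and 0 rose, which was 7.69% of the 26 against 1.16% of all genes. In inflorescence against leaf 2 rose (AP1 and SEP1) and 1 fell (SNZ), or 11.5% against 4.06%. SNZ thus shared with SVP a leaf domain of H3K4me3, and unlike SVP it had none left in the apices. SOC1, the partner of AGL24, differed in H3K4me3 by -0.06 ± 0.42 between t0 and leaf and by -0.12 ± 0.42 between t2 and t0. In the inflorescence it was lower, by -1.21 ± 0.42 against t2 (limma adjusted p = 0.533) and by -1.39 ± 0.42 against leaf (limma adjusted p = 0.206). None of these passed the threshold.

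For H3K27me3, 27 of the 33 genes were tested, and apex t0 differed from leaf in 11, or 40.7%, with 3 higher and 8 lower (median -0.40, against 0.09 over all genes). The share called over all genes tested was 9.57%. The 3 that rose were TEM1, TEM2 and SNZ, which encode repressors of flowering, and MAF4, an FLC-family repressor, was among the 8 that fell (-0.97 ± 0.18, limma adjusted p = 0.0279). TEM1 and TEM2 had no leaf island in either library, as for SVP, and SNZ had 82.6 and 57.9 RPM in leaf and 205 and 245 at t0 (1.68 ± 0.23, limma adjusted p = 0.00876). The others that fell included FUL and SOC1, which had no island in t0, LFY (-1.76 ± 0.26), AGL6 (-1.61 ± 0.17), AGL71 (-1.15 ± 0.20) and AGL72 (-1.13 ± 0.22). AGL71 and AGL72 are neighbouring loci and their values are not independent. The last of the 8 was GA20OX2 (limma adjusted p = 0.0489), whose call ended with the replicate block (0.0818). MAF4 and GA20OX2 lie beyond the 6 largest falls and were named after their values were seen. FLC, the partner of SVP, differed by 0.03 ± 0.23 and its target FT by -0.40 ± 0.21, neither past the threshold. From t2 to inflorescence SOC1, LFY and AGL6 rose and 0 fell (AGL6 at limma adjusted p = 0.049, and 0.106 with the block), 11.1% of the list against 3.29% of all genes. With the block MAF4 passed as well (0.54 on the log2 scale, limma adjusted p = 0.0394, against 0.427 without it). SOC1 went from no island to 294 and 249 RPM. For genes with no island at a stage, the p-values set that stage to 0 RPM in both libraries, and it adds no spread. In inflorescence against leaf TEM1, TEM2 and SNZ rose and 0 fell, 11.1% against 5.15%. The median over the list was 0.04 in the former and -0.31 in the latter, against -0.02 and 0.06 over all genes.

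Genes of like pattern were looked for among genes with a symbol of their own, by the mean absolute difference in log2(RPM per kb + 1) over the 8 libraries of a mark. For H3K4me3 the nearest to SVP of 7719 genes were ALDH2C4, an aldehyde dehydrogenase (0.31), CNGC12, a cyclic nucleotide-gated channel (0.34), and MEKK3, a MAP kinase kinase kinase (0.34), with a median distance of 1.16. ALDH2C4 had 26.3 and 23.8 RPM per kb in leaf and 8.03 and 9.34 in the inflorescence. Nearest to AGL24 were GLIP5 (0.42), NTM1 (0.46) and NIK2 (0.49). For H3K27me3 the nearest to SVP of 3140 genes were NHL1 (0.20), RLP31 (0.28) and OFP15 (0.28), each without an island in leaf. NHL1 had 78.2 and 73.8 RPM per kb at t0 and 108 and 88.0 in the inflorescence. The other genes did not share that rise. RLP31 had 55.3 and 70.7 at t0 and 43.5 and 57.2 in the inflorescence, and OFP15 54.0 and 53.5, then 51.2 and 61.5. Nearest to AGL24 were MC2, a metacaspase (0.25), UBP11, a ubiquitin-specific protease (0.36), and PP2-B5 (0.39), each of which had much less in leaf replicate 1 than in replicate 2, as with 13.8 and 59.9 RPM per kb for MC2. The leaf replicates were among the libraries used to find the genes like SVP and those like AGL24. Their likeness in leaf, the missing islands included, was therefore fixed by the choice. Ranked by distance from SVP, AGL24 was 2286th in H3K4me3 and 260th in H3K27me3. Ranked by distance from AGL24, SVP was 613th in H3K4me3 and 2175th in H3K27me3.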

How the data were processed

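The authors deposited one island table per library, which gives each island's position, reads in ChIP and control, fold, p and its adjusted form. The build was TAIR10 and the tools were SICER 1.1, BWA 0.6.2-r126 and others, per the submitters' processing notes. Caller settings are not given in the sources used here. Islands were called per library. Columns were read at tabs and the read columns are whole counts as deposited. The fold and p-value of an island are the authors' own. Control reads of islands with the same bounds were identical (100%) between leaf and inflorescence, and between t0 and t2, of one replicate and mark, so those libraries shared a control. The 6 input samples, which are of apex t2 and inflorescence only, were not used.

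Gene bodies came from a RefSeq table of assembly TAIR10.1. Its names differ from the authors' build, so no gene coordinate is printed. In 115 of 119 bins of 1 Mb the overlap with H3K4me3 islands was largest at an offset of 0, and in 118 within 200 bp. Island positions are 1-based. Island reads were apportioned to a gene by overlap, and the tables give no common features for a count model. RPM was scaled by a trimmed mean of log ratios (30% and 5% trimmed). Genes with at least 200 bp of body under islands in both replicates of a stage were tested with limma 3.58.1 (R 4.3.3, statmod 1.5.0) on log2(RPM + 1) of the 8 libraries of a mark. Stage was the only term, with trend and robust moderation, leaving 4 residual degrees of freedom, two-sided with Benjamini-Hochberg adjustment over all tested genes. The script was tested on simulated data. A fold change is printed where all 4 libraries compared had islands.

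Replicates 1 and 2 used different sonication, antibody lots, library kits and sequencers, and replicate 2 pooled 3 technical immunoprecipitations, per the labels' protocols. A replicate number thus marks a batch. Same-numbered libraries deviated together (r 0.231 to 0.444 for H3K4me3 and 0.156 to 0.448 for H3K27me3 over genes). The genes and lists were chosen with earlier results of these data known. Named were SVP, AGL24, 6 known partners or targets, up to 6 pathway genes past the threshold in each direction, neighbours reached by an island, and the 3 nearest genes in pattern.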

Additional observations from a re-analysis of the deposited data

How the results depend on the processing

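Alternatives were RPM without further scaling, a pseudocount of 5 RPM, no gene filter, an overlap of at least 0.5 of the body, islands of fold 2 or more, the body with 2 kb flanks, the replicate block and each library left out. Of 232 alternative values for SVP and AGL24, 215 kept their direction and side of the threshold. For the number of genes called, 76 of 120 stayed within 1.5 times the main count. An overlap of 0.5 of the body left both genes untested for H3K4me3. Scaling moved no median of all genes by over 0.1 (log2). With the replicate block, which follows the pairing of libraries by batch, SVP in H3K4me3 passed for t0 against leaf (adjusted p = 0.0286), no other call on SVP or AGL24 changed, and 2391 genes were called there and 125 in inflorescence against t2. With islands of fold 2 or more, AGL24 passed in H3K4me3 for inflorescence against t2 (0.0214) and against leaf (0.0161), and 20 genes were called in H3K27me3 for t2 against t0. For H3K4me3 in inflorescence against t2, 125 genes were called with the pseudocount of 5, 60 without the filter and 102 with flanks. With the 0.5 overlap, 16 were called for t2 against t0 and 465 for inflorescence against leaf in H3K4me3, and 185 for inflorescence against t2 in H3K27me3. Without the filter that last count was 113, and with flanks 1451 were called in H3K27me3 for t0 against leaf.

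With each library left out in turn, H3K4me3 calls ranged from 96 to 3046 for t0 against leaf, 0 to 100 for inflorescence against t2 and 66 to 1806 for inflorescence against leaf. H3K27me3 calls ranged from 615 to 2063, 0 to 1102 and 342 to 1644 in the same order. The adjusted p of SVP in H3K4me3 for inflorescence against leaf ranged from 0.0361 to 0.102, and in H3K27me3 for inflorescence against t2 from 0.0452 to 0.908. For AGL24 it ranged from 0.0451 to 0.833 in H3K4me3 for inflorescence against leaf, from 0.0104 to 0.867 in H3K27me3 for t0 against leaf, and from 0.00688 to 0.750 for inflorescence against leaf. For t2 against t0 it stayed at 1, although the sign changed for both genes in H3K4me3 and for AGL24 in H3K27me3. The causes of these changes were not tested. A library left out leaves 1 in its stage, which is then assumed to vary like the other stages. At 2 libraries a stage, only differences well above the replicate spread can pass.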

Other observations

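The gene below AGL24, AT4G24530, is reached in H3K27me3 by the edge of the AGL24 island. That edge covered 222 bp of its body in both inflorescence libraries (22.5 and 26.0 RPM), 22 bp in leaf replicate 2 and 0 bp in the other 5. The gene entered the test only through the inflorescence, where those 222 bp cleared the filter of 200 bp. It then passed the threshold in inflorescence against t2 and against leaf (limma adjusted p = 0.0194 and 0.0314). These p-values rest on that selection and on both t2 libraries and 1 leaf library being set to 0 RPM. At SVP, inflorescence replicate 2 had 1646 bp of H3K27me3 island below the gene and replicate 1 had none there.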
